A study of Mus musculus with 24 samples.

Results

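The collagen genes of mouse were followed in cultured neurons. They were defined as every gene symbol made of Col, a number, a and a number that the array's annotation gives to a probe set on its own. Such symbols covered 82 probe sets and 42 genes, out of 18193 genes with a probe set of their own on the array, and each gene was represented by its probe set with the highest mean over the 24 arrays. Of the 42 genes, 34 passed a filter on dim signal (at least 3 arrays above the 40th percentile of their own array) and were tested among 14217 genes in all. The filter left out Col2a1, Col6a5, Col9a2, Col10a1, Col11a2, Col15a1, Col17a1 and Col24a1. The symbols Col6a6, Col21a1 and Col28a1 had no probe set of their own.

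Each of the 24 samples was a one-colour Affymetrix array hybridised with total RNA of embryonic cortical neurons from Il1rap-/- mice. Before receptors were introduced, all 8 groups therefore lacked both products of that gene, the interleukin-1 receptor accessory protein AcP and its neuronal isoform AcPb. The neurons had been made to express CD25, AcP, AcPb or AcP together with AcPb, CD25 being a subunit of the interleukin-2 receptor and the control for an introduced receptor. Each of these 4 arms received either a control stimulus or IL-1b at 10 ng/ml for 4 h, with 3 arrays per group. The labels do not tell how the receptors were introduced, nor whether arrays within a group stem from different dishes or litters, so a p-value measures only the spread between these arrays. The CD25, AcP and AcPb arrays shared one code in their deposited names (m21B), and the AcP+AcPb arrays carried others (m22B and m23B), so that this code and the AcP+AcPb arm cannot be told apart from each other. Within that arm, control arrays 1 and 2 carried m22B, and control array 3 and all IL-1b arrays m23B.

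Collagens are secreted or membrane proteins whose chains wind into a triple helix. Fibrillar collagens build fibres, type IV collagens form the sheet of basement membranes, type VI collagens form beaded filaments beside cells, and fibril-associated collagens decorate fibres. In brain most fibrillar and type IV collagen is made by meningeal, mural and endothelial cells, while neurons and glia make some of the less common chains. Neurons are known to make the transmembrane collagen Col25a1 and the fibril-associated collagen Col19a1.

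Genes of type IV collagen lie in head-to-head pairs, and Col4a6 and Col4a5 are such a pair on chromosome X. Promoter sequence is shown for 4 collagen genes with lower signal in receptor neurons than in CD25 neurons, to give the DNA before their starts (RefSeq, build GRCm38.p6, outside every annotated gene, read 5′ to 3′ along the gene's strand). Capitals mark 3 short motifs wherever they occur on either strand. One is the box CCAAT of many promoters, another is the box GGGCGG that Sp1 proteins bind, and the last is TGANTCA, the element of AP-1 factors, with N for any base. A match on the opposite strand appears as its reverse complement.
Col4a6, chrX:141474096-141474326, minus strand: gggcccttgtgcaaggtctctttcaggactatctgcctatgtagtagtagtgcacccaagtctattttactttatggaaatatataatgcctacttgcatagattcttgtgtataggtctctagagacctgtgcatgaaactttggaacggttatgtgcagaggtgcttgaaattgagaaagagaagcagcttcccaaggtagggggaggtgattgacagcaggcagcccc
Col4a5, chrX:141475169-141475369, plus strand: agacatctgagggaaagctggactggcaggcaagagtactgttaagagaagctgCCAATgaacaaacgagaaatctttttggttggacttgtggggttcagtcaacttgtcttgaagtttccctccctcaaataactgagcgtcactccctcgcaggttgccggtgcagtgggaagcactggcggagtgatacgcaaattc
Col11a1, chr3:114030290-114030478, plus strand: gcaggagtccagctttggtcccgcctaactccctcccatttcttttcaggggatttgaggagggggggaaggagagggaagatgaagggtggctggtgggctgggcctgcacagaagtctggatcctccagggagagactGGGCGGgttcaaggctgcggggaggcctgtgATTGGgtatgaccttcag
Col8a1, chr16:57754738-57754987, minus strand: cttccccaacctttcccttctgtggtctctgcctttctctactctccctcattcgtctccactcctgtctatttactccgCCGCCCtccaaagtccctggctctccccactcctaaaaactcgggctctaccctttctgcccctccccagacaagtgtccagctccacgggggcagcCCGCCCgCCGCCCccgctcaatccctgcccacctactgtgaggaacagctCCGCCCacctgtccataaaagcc
The Col4a6 stretch held none of the 3 motifs, the Col4a5 stretch held 1 CCAAT, the Col11a1 stretch 1 CCAAT and 1 GGGCGG, and the Col8a1 stretch 4 GGGCGG. The motif shares used the first 250 bases of each promoter window, which can run past the annotated gene start where the printed stretches end. In these bases CCAAT occurred in 12 of the 33 collagen genes that the promoter table held and in 33.8% of all 32851 windows. GGGCGG occurred in 20 of 33 collagen genes against 32.7% of all windows, and TGANTCA in 1 of 33 against 6.75%. Col4a5 and Col4a6 were among the 20, with matches that reach past the printed stretches. Matches of different motifs could overlap by end letters, and none did in the printed stretches. A match is a description of the letters and says nothing of binding.

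All values are deposited signal intensities on a linear scale, in which values below 0 occur. Over the 24 arrays, array medians lay between 55 and 66.4, between 16.4% and 18.2% of probe sets were below 0, and correlations between arrays of one group were high, with no pair identical. Differences are given as log2(value + 16) after values below 0 were set to 0, with the standard error of limma's fit to all 24 arrays, and p-values are adjusted by the Benjamini-Hochberg method over the 14217 genes. The word called stands for an adjusted p under 0.05. A fold change on this scale understates the change of dim genes. The 10 neuron markers were bright on every array (summed intensity 43504 to 51772), and the 10 astrocyte markers were present as well (26279 to 34800), so the RNA held transcripts of neurons and of glia. Of the 10 endothelial markers 4 passed the dim filter, with group means of 62 to 83.9 for Kdr, 29.3 to 41.1 for Flt1, 20.7 to 30 for Esam and 25.8 to 41.2 for Emcn. Among the other 6, Pecam1, Tie1 and Slco1a4 were below 0 in every group, Cldn5 was near or below 0, and Tek and Cdh5 were dim (group means 7.71 to 28.5).

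The first comparison asks whether collagen genes differ between neurons with AcP and neurons with CD25 when neither is stimulated. Of the 34 tested collagen genes, 12 (35.3%) were called, against 15.5% of all genes tested. Lower in AcP neurons were 9 collagens, against 8.68% of all genes called lower, and higher were 3, against 6.86% of all genes called higher. The median difference was -0.08 over the 34 collagens and 0.01 over all genes. By class, 5 of 8 tested fibrillar collagens were lower, with 2 of 6 basement membrane chains, 1 of 4 beaded filament chains and 1 of 2 short-chain collagens, whereas 2 of 8 fibril-associated and 1 of 3 transmembrane collagens were higher. The AcP arrays lay below all CD25 arrays for 11 of 34 collagens and for 14.6% of all genes. When the fit held only the 6 arrays compared, 5 collagens were called, Col3a1, Col4a5, Col5a2, Col11a1 and Col19a1. A gene that passed the dim filter only through CD25 arrays had to differ, so these counts describe the genes that passed and no more. In RNA of a whole culture, fewer cells of a type and less RNA per cell cannot be told apart. Col4a6 was above the 40th percentile on all 6 CD25 arrays and on 1 of the 18 others, and Col18a1 on 6 and 2.

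Among fibrillar collagens the largest difference was in Col5a2, a chain of type V collagen, which seeds and thins collagen fibres. Its intensity was 222, 386 and 337 on the unstimulated CD25 arrays and 65.2, 66.3 and 49.1 on the unstimulated AcP arrays. The groups did not overlap, and the difference was -2.09 ± 0.26 (SE, adjusted p = 2.2e-05), a 4.27-fold lower level. Col11a1, the type XI chain that partners type V in fibre cores, read 197, 162 and 209 in CD25 neurons and 54.4, 50.6 and 85.2 in AcP neurons. Its difference of -1.39 ± 0.14 had the smallest adjusted p of the collagens, 2.7e-06. All CD25 arrays of both genes were well apart from all AcP arrays.

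Col3a1, a chain of reticular fibres around vessels, read 166, 114 and 140 in CD25 neurons and 77.6, 69.0 and 76.8 in AcP neurons (difference -0.78 ± 0.13, adjusted p = 0.00031). Col5a3, another type V chain, read 166, 191 and 162 against 106, 58.9 and 118 (difference -0.82 ± 0.19, adjusted p = 0.0061). Both pairs of groups were apart on every array. Col1a1, one chain of type I collagen, passed the threshold narrowly with overlapping arrays: 43.6, 66.1 and 54.7 in CD25 neurons and 29.0, 47.9 and 24 in AcP neurons (difference -0.53 ± 0.17, adjusted p = 0.04). Its partner chain Col1a2 was not called (difference -0.50 ± 0.21, adjusted p = 0.12), and neither was Col5a1 (difference -0.06, 95% interval -0.49 to 0.38) nor Col27a1.

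**Figure D1:**
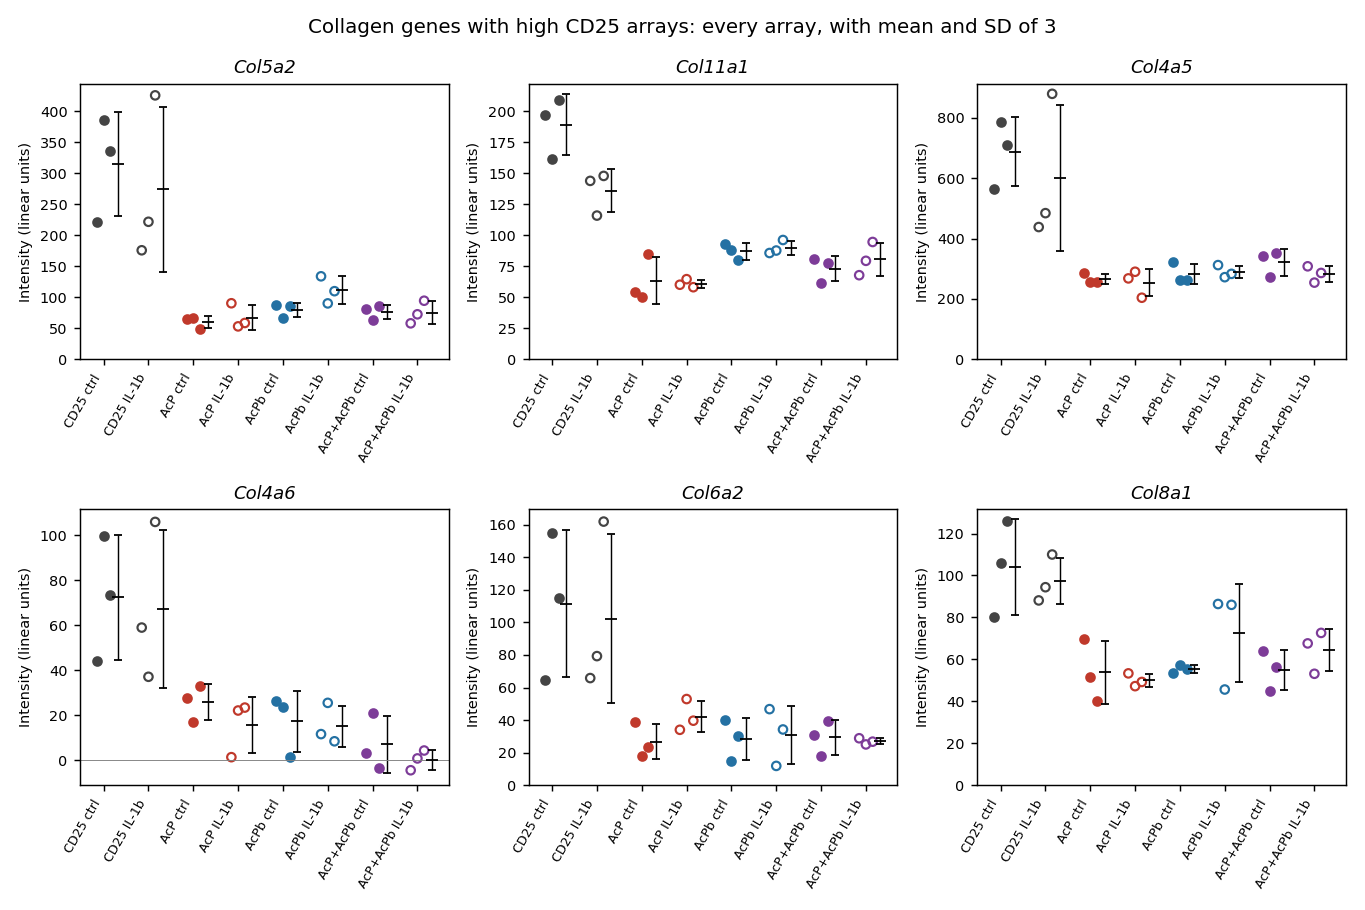
Deposited intensity (linear units) of Col5a2, Col11a1, Col4a5, Col4a6, Col6a2 and Col8a1 on each of the 24 arrays, by group, with filled circles for control, open circles for IL-1b, and the mean with its SD of 3 arrays beside them. In all panels but that of Col8a1, the 6 CD25 arrays lie above the 18 arrays of the other arms, and the third IL-1b array of CD25 neurons is the highest array for Col5a2, Col4a5, Col4a6 and Col6a2.

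Of the 6 basement membrane chains tested, Col4a5 and Col4a1 were called. Col4a5, on chromosome X, read 563, 787 and 711 in unstimulated CD25 neurons and 287, 255 and 257 in AcP neurons, a difference of -1.30 ± 0.19 (adjusted p = 0.00015). Its head-to-head neighbour Col4a6 read 44.3, 99.7 and 73.4 against 27.5, 17.2 and 32.8, groups that did not overlap but whose difference of -1.05 ± 0.41 missed the threshold (adjusted p = 0.091). The CD25 arrays of both genes lay above the AcP arrays. The main chains of most basement membranes, Col4a1 and Col4a2, are also a head-to-head pair, of which one was called. Col4a1 was lower in AcP neurons (447, 525 and 534 against 437, 311 and 332, difference -0.47 ± 0.11, adjusted p = 0.0051). Col4a2 read 363, 344 and 368 against 328, 396 and 359, a difference of 0.01 ± 0.11 with a 95% interval of -0.23 to 0.24.

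Col6a2, a chain of the beaded filaments of type VI collagen, read 64.6, 155 and 115 in CD25 neurons and 38.9, 17.6 and 23.7 in AcP neurons (difference -1.54 ± 0.34, adjusted p = 0.0045). The CD25 arrays were spread widely but all above the AcP arrays. Its partners were not called: Col6a1 had a difference of -0.45 ± 0.18 (adjusted p = 0.096), and Col6a3 a difference of 0.00 with a 95% interval of -0.28 to 0.28. Col8a1, a short-chain collagen of endothelium and vessel wall, read 80.1, 106 and 126 against 69.9, 51.8 and 39.9 (difference -0.79 ± 0.19, adjusted p = 0.0074). Col8a2, the second chain of type VIII, was not called (0.21 ± 0.17).

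The 3 collagens that were higher in AcP neurons were Col19a1, Col25a1 and Col9a1. Col19a1, a fibril-associated collagen that interneurons make and that takes part in synapse formation, read 104, 84.2 and 114 in CD25 neurons and 178, 174 and 187 in AcP neurons (difference 0.76 ± 0.14, adjusted p = 0.0014). Col25a1, a transmembrane collagen of neurons whose shed part binds amyloid, read 126, 113 and 104 against 130, 191 and 212 (difference 0.55 ± 0.13, adjusted p = 0.0061). The lowest AcP array for Col25a1 lay just above the highest CD25 array. Col9a1, a fibril-associated chain best known from cartilage, read 74.2, 90.1 and 74.7 against 104, 109 and 97.8, the smallest called difference (0.32 ± 0.09, adjusted p = 0.018).

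Markers of other cell types differed between the same arms. The 10 mural markers summed to 3114 to 4337 on unstimulated CD25 arrays, 1321 to 1541 on AcP arrays and 1568 to 1949 on AcPb arrays. Of the 7 tested, Tagln, Acta2, Rgs5 and Notch3 were lower in AcP neurons, against 8.68% of all genes called lower. Tagln averaged 1140 ± 305 in CD25 and 70.3 ± 55.4 in AcP neurons (SD, n = 3). Acta2 averaged 1741 ± 347 and 635 ± 58.3, and both genes made up much of the CD25 sum. Cspg4 (mean 88.8 in CD25 and 80.8 in AcP neurons), Pdgfrb (77.7 and 85.8) and Des (45.7 and 56.5) were not called. Anpep was below 0 in every group and Kcnj8 near 0. The 16 fibroblast and meningeal markers summed to 3668 to 4128 in CD25, 3276 to 3717 in AcP and 2846 to 2899 in AcPb neurons. Much of that sum was Thy1, and the other 15 markers summed to 2065 to 2447 in CD25, 1087 to 1171 in AcP and 1268 to 1340 in AcPb neurons. Of the 14 tested, S100a6, Fn1, Foxc1 and Postn were lower in AcP neurons (8.68% of all genes) and Thy1, also a neuronal gene, was higher (6.86%). Foxc1 was dim, with group means of 48.5 and 32.8 in the CD25 arm and at most 30.7 elsewhere. Its call may follow from the dim filter. The largest falls in intensity were those of Fn1 (mean 807.7 in CD25 and 222.3 in AcP neurons) and S100a6 (672.2 and 105.8). Of the 14 differences only 6 were below 0, and their median was 0.06, so the lower sum was not a fall of the whole list. Dcn and Lum were not lower in AcP neurons (0.45 ± 0.16 and 0.07 ± 0.18), and Slc6a13 was below 0 in every group.

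Progenitor and dividing-cell markers, 9 on the array, summed to 11234 to 11972 in CD25, 5705 to 7025 in AcP and 7332 to 7817 in AcPb neurons without stimulus. Vim, Nes, Sox2, Cdk1, Top2a and Mcm5 were lower in AcP neurons and Hes5 higher. Of the 10 astrocyte markers, Gfap, Aqp4 and Aldh1l1 were lower in AcP neurons and Slc1a2, Aldoc, S100b and Glul higher. Of the 8 tested oligodendrocyte-lineage markers, Olig1 was higher, and 0 of 4 microglial markers were called by limma, Tyrobp having the lowest adjusted p, 0.073. The neuron list had 1 gene called, Syt1, and of the 4 tested endothelial markers, Kdr, Flt1, Esam and Emcn, 0 were called by limma. Of all genes tested, 15.5% were called between unstimulated AcP and CD25 neurons, 8.68% lower and 6.86% higher. Beside that share, counts of 0 or 1 in lists this short do not show that a cell type was alike. The part of these markers in the collagen differences was not tested.

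**Figure D2:**
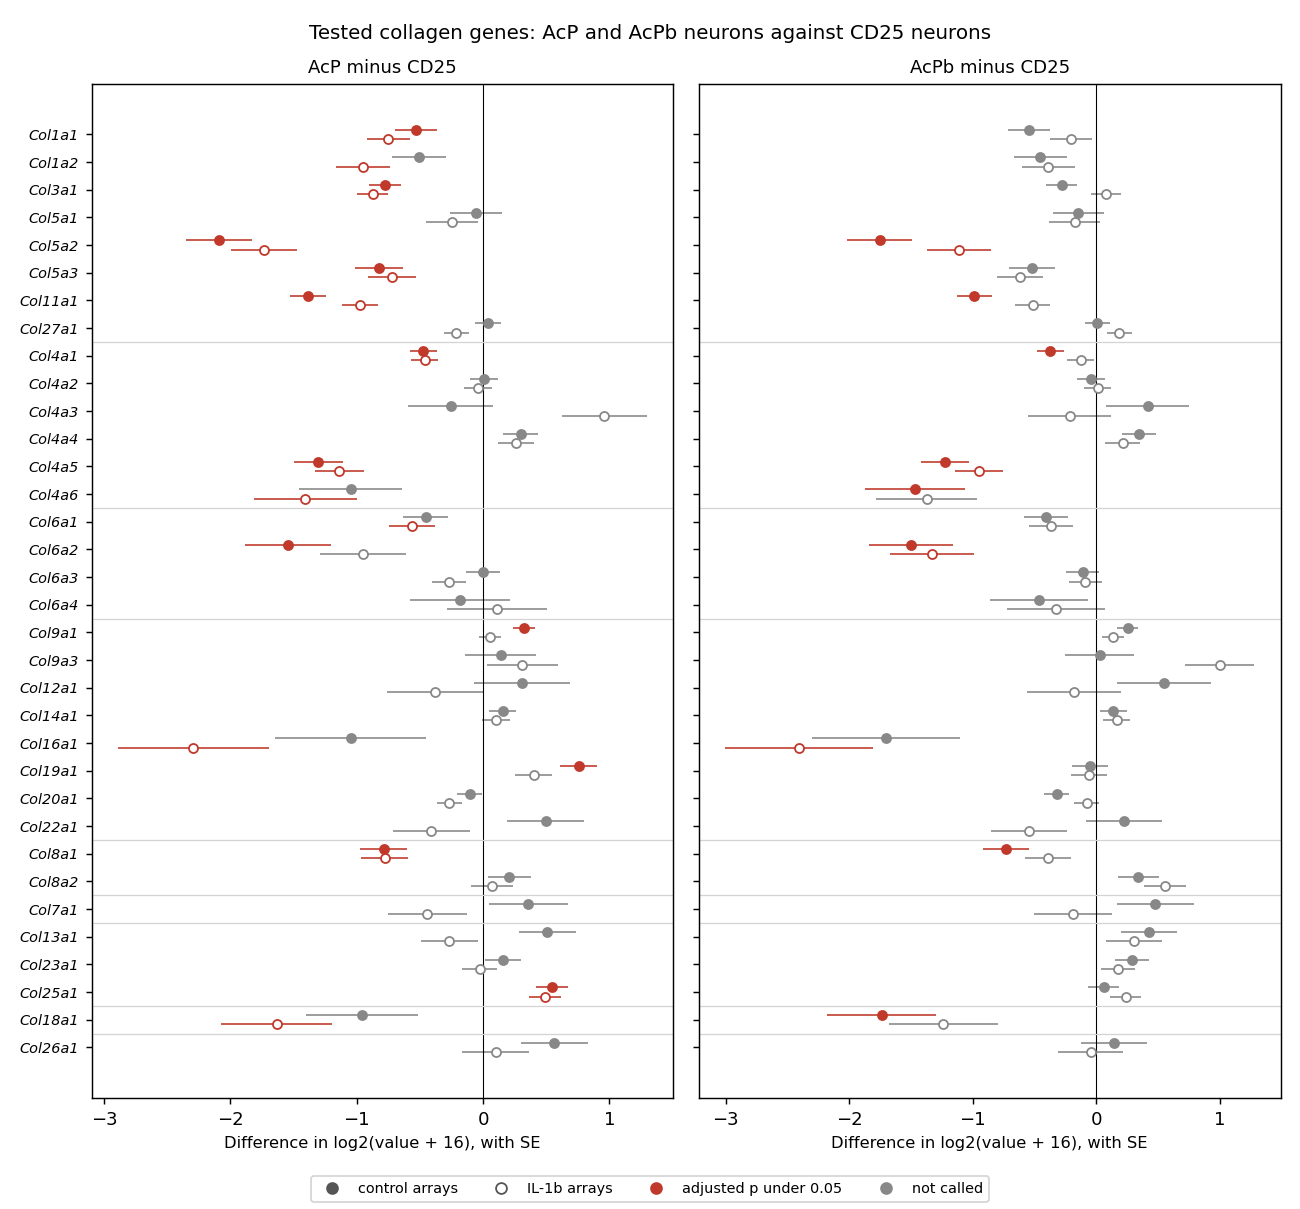
Difference of log2(value + 16) from CD25 neurons for each tested collagen gene, with lines between structural classes, for AcP neurons (left) and AcPb neurons (right), filled circles for control arrays, open circles for IL-1b arrays, bars for the standard error and red for an adjusted p under 0.05. Most red points lie left of 0, led by Col5a2, Col6a2, Col16a1 and Col18a1, while Col9a1, Col19a1 and Col25a1 have red points to the right in AcP neurons.

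The same question for AcPb used the same CD25 arrays, so its values stand beside those for AcP and do not repeat them independently. In unstimulated AcPb neurons 8 of 34 collagens (23.5%) were called, all lower, against 7.62% of all genes called and 5.25% called lower. The AcPb arrays lay below all CD25 arrays for 13 collagens and for 17.9% of all genes. The differences were -1.75 ± 0.26 for Col5a2 (adjusted p = 0.00029), -1.23 ± 0.19 for Col4a5 (0.00051), -0.99 ± 0.14 for Col11a1 (0.00019) and -1.50 ± 0.34 for Col6a2 (0.01). Col8a1 (-0.73 ± 0.19, adjusted p = 0.021) and Col4a1 (-0.37 ± 0.11, adjusted p = 0.04) were lower as well. Col18a1, the source of endostatin in vascular basement membrane, and Col4a6 completed the list. Both passed the dim filter only through CD25 arrays and had to differ, so they add nothing to the count of 8. Col18a1 read 51.6, 114 and 78.8 in CD25 neurons and 24.2, 19.0 and -0.64 in AcPb neurons (difference -1.74 ± 0.44, adjusted p = 0.02). Col4a6 read 26.5, 23.8 and 1.52 in AcPb neurons (difference -1.46 ± 0.41, adjusted p = 0.034).

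Col19a1 and Col25a1, higher in AcP neurons, were not called in AcPb neurons. Col19a1 read 92.2, 96.4 and 99.2 there, a difference from CD25 neurons of -0.05 with a 95% interval of -0.36 to 0.25. Col25a1 read 126, 117 and 116 (difference 0.06, interval -0.20 to 0.33). When CD25 control array 2, CD25 control array 3 or AcPb control array 3 was left out, 4 collagens were called in place of 8, with Col11a1, Col4a5 and Col5a2 among them each time. A fit of only the arrays compared called 4, and one with array quality weights called 14.

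Under IL-1b the AcP arm showed 14 of 34 collagens (41.2%) called against CD25 neurons, with 11.5% of all genes called. Lower were 13, against 6.18% of all genes, and 1 was higher, against 5.3%. The AcP arrays lay below all CD25 arrays for 17 collagens, against 16.4% of all genes. The median difference over the 34 collagens was -0.33, and over all genes it was -0.01. Fibrillar collagens gave 6 of 8 tested, basement membrane chains 3 of 6, and beaded filament, fibril-associated, multiplexin and short-chain collagens 1 each. The multiplexin was Col18a1, and 1 of the 3 basement membrane chains was Col4a6. Both passed the dim filter only through CD25 arrays and had to differ, so they add nothing to the count of 14. Col5a2 read 176, 222 and 426 in IL-1b-treated CD25 neurons and 90.5, 53.2 and 58.7 in IL-1b-treated AcP neurons (difference -1.73 ± 0.26, adjusted p = 0.00024). Col3a1 read 118, 144 and 172 against 72.5, 62.9 and 78.1 (difference -0.87 ± 0.13, adjusted p = 0.00015). Both chains of type I collagen were called here, Col1a2 with 148, 183 and 265 against 113, 77.2 and 90.2 (difference -0.95 ± 0.21, adjusted p = 0.007) and Col1a1 with a difference of -0.75 ± 0.17 (adjusted p = 0.0066). All arrays of these 4 genes were higher in CD25 neurons.

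Col16a1, a fibril-associated collagen of fibroblasts and muscle, had the largest difference but dim and scattered values: 192, 94.2 and 125 in CD25 neurons and 2.92, 33.9 and 13.1 in AcP neurons (difference -2.29 ± 0.60, adjusted p = 0.017). Col18a1 (-1.63 ± 0.44, adjusted p = 0.021), Col4a6 (-1.41 ± 0.41, adjusted p = 0.031), Col4a5 (-1.14 ± 0.19, adjusted p = 0.00073) and Col11a1 (-0.98 ± 0.14, adjusted p = 0.00018) were lower too, Col18a1 and Col4a6 again as genes that passed the filter only through CD25 arrays. The remaining lower genes were Col8a1 (-0.78), Col5a3 (-0.72), Col6a1 (-0.56, adjusted p = 0.049) and Col4a1 (-0.46). Col25a1 was the one gene called higher, at 177, 157 and 178 against 142, 102 and 110 (difference 0.49 ± 0.13, adjusted p = 0.017). Col19a1 missed the threshold here (0.40 ± 0.14, adjusted p = 0.084).

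The third IL-1b array of CD25 neurons stood high for several collagens, with 879 for Col4a5 against 438 and 484 on the other two, 162 for Col6a2 against 65.8 and 79.3, and 339 for Col6a1 against 188 and 219. Without that array 8 collagens were called in the AcP comparison, among them Col5a2, Col11a1, Col4a5 and Col3a1, and a fit of only the 6 arrays compared called 5. The same array had summed mural markers of 4139, against 2792 and 2767 on the other two, and summed fibroblast markers without Thy1 of 2614 against 1819 and 1940. The part of these markers in the result was not tested.

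In IL-1b-treated AcPb neurons 4 of 34 collagens (11.8%) were called against CD25 neurons, all lower, with 3.62% of all genes called and 2.78% called lower. The AcPb arrays lay below all CD25 arrays for 10 collagens and for 15.6% of all genes. They were Col16a1 (-2.40 ± 0.60, adjusted p = 0.029), Col6a2 (-1.33 ± 0.34, adjusted p = 0.034), Col5a2 (-1.11 ± 0.26, adjusted p = 0.023) and Col4a5 (-0.95 ± 0.19, adjusted p = 0.0085). Col3a1, at 173, 145 and 141, lay among the CD25 values (difference 0.08, 95% interval -0.18 to 0.34). Without the third CD25 array, the second AcPb array or the third AcPb array of these IL-1b groups, Col4a5 alone was called. The count was 1 in a fit of only the arrays compared and 8 with array quality weights.

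Taking all arms and both stimuli as a description, 5 of 34 tested collagens had their 6 CD25 arrays above all 18 other arrays: Col4a5, Col4a6, Col5a2, Col6a2 and Col11a1. Among all 14217 genes 2.41% did so. Col4a6 passed the dim filter only through its CD25 arrays and had to differ, so nothing is read from this count. The CD25 arrays spanned 176 to 426 for Col5a2 and the others 49.1 to 134, 116 to 209 against 50.6 to 96.3 for Col11a1, and 438 to 879 against 204 to 353 for Col4a5. On the further probe sets of Col4a5, Col4a6 and Col6a2 the CD25 arrays overlapped the others. That of Col6a2 read 23, 33.6 and 114 in IL-1b-treated CD25 neurons and 90.8, 22.6 and 31.6 in unstimulated AcPb neurons. On the further probe sets of Col5a2 and Col11a1 the CD25 arrays lay above all others. No tested collagen had its 6 CD25 arrays below all others, as did 0.605% of all genes.

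Several genes had a further probe set, which was fitted on its own. Of the 46 pairs of a gene and a comparison in which a collagen was called, 25 had another tested probe set for the gene. In 15 of these a further probe set was called in the same direction, in the other 10 none was called though at least one had the same sign, and in 2, both of Col19a1, one had the opposite sign. Col12a1, a fibril-associated collagen of dense connective tissue, depended on the probe set. Its brightest probe set had a difference of 0.31 ± 0.38 between unstimulated AcP and CD25 neurons and was not called. A second probe set of the gene read 169, 284 and 309 in CD25 neurons and 15.4, 15 and 30.3 in AcP neurons, with a difference of -2.88 ± 0.48 (adjusted p = 0.00054 over all probe sets).

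The receptor arms were also compared with one another. Between unstimulated AcPb and AcP neurons 1 of 34 collagens was called, against 0.971% of all genes. This was Col19a1, lower in AcPb neurons by 0.81 ± 0.14 on the log2 scale (difference -0.81, adjusted p = 0.01), with no overlap between 92.2 to 99.2 and 174 to 187. The call was lost when AcPb control array 1 was left out. A second Col19a1 probe set read 87.6, 96 and 98.3 in AcPb neurons and 173, 138 and 177 in AcP neurons, whereas on a further, dim one the arms overlapped. Neurons with AcP and AcPb together read 177, 160 and 197 on the first probe set, near the AcP values. Col25a1 had the same order of arms without passing the threshold (AcPb minus AcP -0.49 ± 0.13, adjusted p = 0.077).

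**Figure D3:**
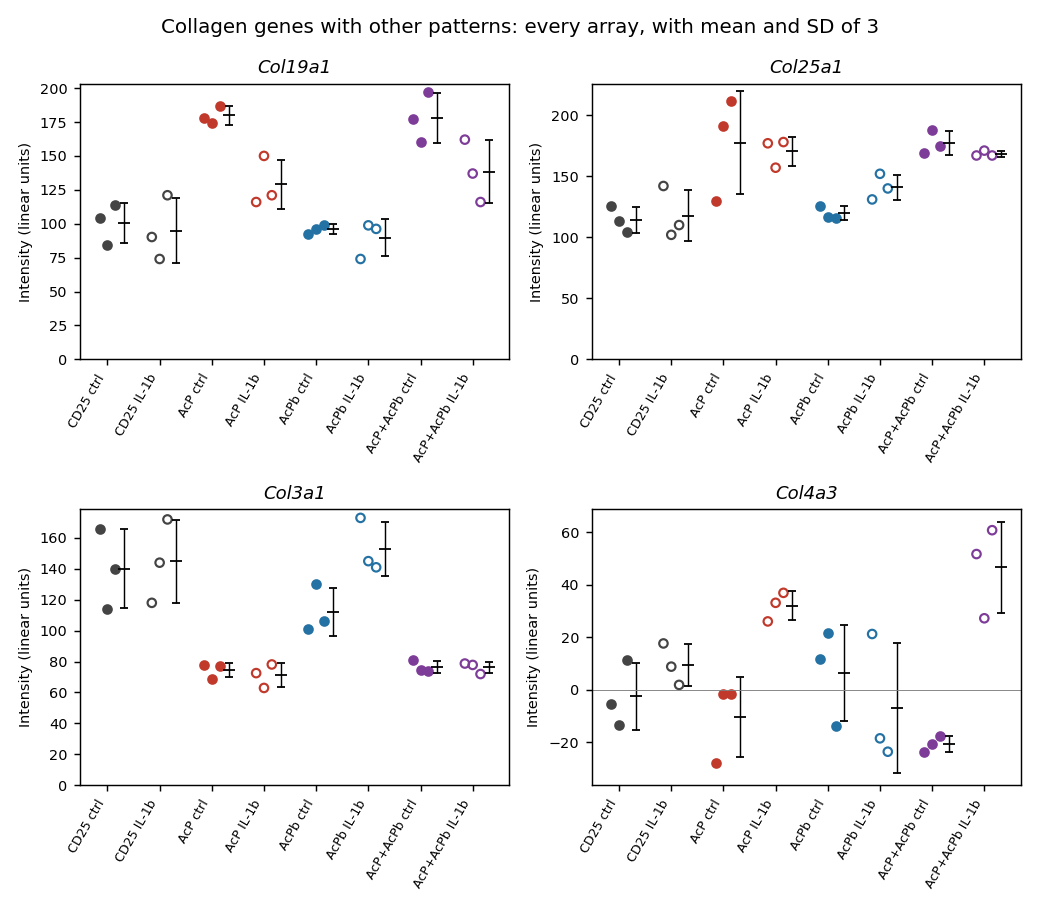
Deposited intensity (linear units) of Col19a1, Col25a1, Col3a1 and Col4a3 on each of the 24 arrays, by group, with filled circles for control, open circles for IL-1b, and the mean with its SD of 3 arrays. Col19a1 is highest on the unstimulated AcP and AcP+AcPb arrays, Col3a1 is high in the CD25 and AcPb arms, and Col4a3 is above 0 on all IL-1b arrays of the AcP and AcP+AcPb arms, where its control arrays are below 0.

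Under IL-1b, 5 of 34 collagens (14.7%) were called between AcPb and AcP neurons, against 9.19% of all genes. Higher in AcPb neurons were 4, all of them among the 8 tested fibrillar collagens, against 3.43% of all genes called higher, and 1 was lower, against 5.77%. The lower gene was Col4a3. It passed the dim filter only through IL-1b arrays of the AcP and AcP+AcPb arms and had to differ, so it adds nothing to the count of 5. Col3a1 led with 173, 145 and 141 in AcPb neurons and 72.5, 62.9 and 78.1 in AcP neurons (difference 0.95 ± 0.13, adjusted p = 0.00014). Col27a1, a fibrillar collagen of developing cartilage, read 81.2, 90.4 and 106 against 67.4, 55.1 and 76.5 (difference 0.40 ± 0.10, adjusted p = 0.019). Col1a1 (0.55 ± 0.17) and Col11a1 (0.46 ± 0.14) stood at an adjusted p of 0.049 each. The AcPb arrays lay above all AcP arrays for 9 collagens, these 4 among them, and for 15.5% of all genes. Only Col3a1 was still called when AcP IL-1b array 2 or AcPb IL-1b array 3 was left out, and array quality weights raised the count to 11. In unstimulated neurons the Col3a1 difference was 0.50 ± 0.13 (adjusted p = 0.066), and the change of that difference with IL-1b, 0.46 ± 0.18, had an adjusted p of 0.48.

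Between AcP+AcPb and AcP neurons no collagen was called in limma's fit, either unstimulated (0.239% of all genes called, with 4 collagens and 11.5% of all genes at an unadjusted p under 0.05) or under IL-1b (0.0633%, with 3 collagens and 12.2%). The intervals still allow differences of some size: for Col5a2 without stimulus the difference was 0.28 with a 95% interval of -0.27 to 0.83, and for Col3a1 under IL-1b it was 0.08 with an interval of -0.18 to 0.35.

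Col4a3 was the only collagen called for a response to IL-1b within an arm. In CD25 neurons 0 of 34 collagens and 0% of all genes were called by limma, with 4 collagens and 6.04% of all genes at an unadjusted p under 0.05. In AcP neurons 1 collagen was called, against 0.542% of all genes. In AcPb neurons the count was 0, against 0.00703%, with 4 collagens and 11% of all genes at an unadjusted p under 0.05, and in AcP+AcPb neurons it was 1, against 0.457%. It was Col4a3 in both arms, a chain of specialised basement membranes in kidney, lung and inner ear.

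Col4a3 was very dim. It read -28.0, -1.81 and -1.75 in unstimulated AcP neurons and 26.0, 33.1 and 36.9 after IL-1b (difference 1.58 ± 0.34, adjusted p = 0.037). In AcP+AcPb neurons it read -23.8, -20.6 and -17.7 without and 51.7, 27.2 and 60.8 with IL-1b (difference 1.93 ± 0.34, adjusted p = 0.0093). In AcPb neurons the IL-1b arrays read 21.2, -18.6 and -23.7, and in CD25 neurons 17.6, 8.75 and 1.79, neither of them called. Since all 6 unstimulated arrays of the AcP and AcP+AcPb arms were below 0, no fold change is given. The gene passed the dim filter through 4 arrays, all of them IL-1b arrays of those arms, so it had to differ there. Its second probe set was too dim to test. In AcP neurons the call was lost when any single one of the 6 arrays was left out, and in AcP+AcPb neurons when control array 2 or IL-1b array 3 was. In AcP+AcPb neurons the array code partly follows the stimulus, control arrays 1 and 2 carrying m22B and the other 4 arrays m23B, and the call was lost when the code was blocked (adjusted p = 0.23). Under IL-1b Col4a3 was lower in AcPb than in AcP neurons (difference -1.17 ± 0.34, adjusted p = 0.036), and the difference between their responses was -1.85 ± 0.48 (adjusted p = 0.2).

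**Figure D4:**
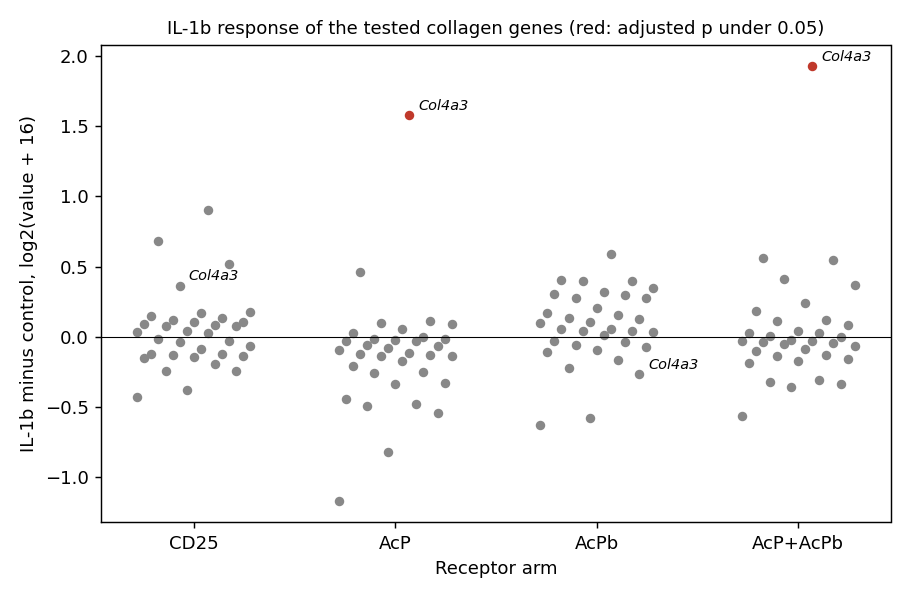
IL-1b minus control, in log2(value + 16), for each of the 34 tested collagen genes in each receptor arm, with red points for an adjusted p under 0.05. Col4a3 in the AcP and AcP+AcPb arms, at 1.58 and 1.93, is the one called gene, and the other points surround 0.

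No other collagen response was called. The extremes that missed the threshold were 0.91 ± 0.31 for Col22a1, a collagen of tissue junctions, in CD25 neurons (60.3, 31.5 and 60.2 without and 105, 110 and 103 with IL-1b, adjusted p = 0.81) and -1.17 ± 0.60 for Col16a1 in AcP neurons (adjusted p = 0.61). Col11a1 in CD25 neurons went from 197, 162 and 209 to 144, 116 and 148 (difference -0.43 ± 0.14, adjusted p = 0.81), without overlap. In AcP neurons 27 of 34 collagen differences were below 0 (48.9% of all genes), with a median of -0.11 against 0.00 over all genes. Below 0 were 11 of 34 in AcPb neurons (51.2% of all genes), 20 in AcP+AcPb neurons (48.4%) and 16 in CD25 neurons (47.4%). Differences between responses were called for no collagen by limma. The share of all genes called was 0.246% for AcP against CD25, 0.26% for AcPb against AcP and 0.00703% for AcP+AcPb against AcP. At an unadjusted p under 0.05 stood 3, 5 and 2 collagens in that order, and 9.07%, 8.34% and 5.3% of all genes.

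Collagen needs helpers to fold, and a list of 33 maturation enzymes and chaperones had 25 genes on the array and 23 tested. In unstimulated AcP neurons 6 of 23 were lower than in CD25 neurons, against 8.68% of all genes, and 0 higher, with a median of -0.10. Loxl1, an enzyme that cross-links matrix fibres, averaged 154.7 ± 77.0 (SD, n = 3) in CD25 neurons and was below 0 on average in AcP neurons (adjusted p = 0.00021), so no size of the difference is given. Serpinh1, the collagen chaperone HSP47, averaged 1096 ± 61.9 against 730.8 ± 27.7 (difference -0.57 ± 0.09, adjusted p = 0.00037). Crtap, a partner of prolyl 3-hydroxylase, had a difference of -0.73 ± 0.12, and Plod2, Plod3 and Pcolce2 were lower as well. Pcolce2 was dim, with group means of 27.6 and 29.0 in the CD25 arm and 7.98 to 21.4 elsewhere. Its call may follow from the dim filter, so it adds nothing to the count of 6. In AcPb neurons Crtap and Serpinh1 were called lower, 2 of 23 against 5.25% of all genes. Under IL-1b 6 were lower in AcP neurons (6.18% of all genes) and 4 in AcPb neurons (2.78% of all genes), with Serpinh1, Plod3 and P4hb in both.

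Among 12 matrix partners of collagen, 10 were tested and 6 were lower in unstimulated AcP than in CD25 neurons, against 8.68% of all genes, with 0 higher and a median of -0.67. The nidogens Nid2 (-1.27 ± 0.19) and Nid1 (-0.99 ± 0.16), which link laminin to type IV collagen, were among them. Sparc, a collagen-binding glycoprotein, averaged 3207 ± 347 in CD25 neurons and 1679 ± 327 in AcP neurons (SD, n = 3), and Bgn, Thbs1 and Fmod were the others. In AcPb neurons 4 of 10 were lower without stimulus (5.25% of all genes) and 0 under IL-1b by limma (2.78%), and in AcP neurons 6 were lower under IL-1b (6.18%). Of 11 tested receptors and turnover enzymes, 2 were lower in unstimulated AcP than in CD25 neurons and 0 higher, against 8.68% of all genes called lower, with a median of 0.02 and 4 of 11 below 0. They were the collagen-binding kinase Ddr1 (-0.87 ± 0.11) and the integrin Itga1, which averaged 46.2 ± 11.6 (SD, n = 3) in CD25 neurons and near 0 in AcP neurons. Outside the CD25 arm the group means of Itga1, 1.06 to 25.2, were below the arrays' 40th percentiles (29.8 to 37.2). The Itga1 call may therefore follow from the dim filter and adds nothing to the count of 2. In unstimulated AcPb neurons Ddr1 (-0.75 ± 0.11) and the integrin chain Itgb1 (-0.38 ± 0.09) were lower than in CD25 neurons, and Mmp14, a membrane-bound protease that cuts collagen, was higher (0.37 ± 0.06). Under IL-1b Ddr1 was lower than in CD25 neurons in both arms (-0.59 ± 0.11 in AcP, -0.45 ± 0.11 in AcPb), and Mmp14 was lower in AcP neurons (-0.24 ± 0.06). Mmp14 was higher in AcPb than in AcP neurons without stimulus (0.34 ± 0.06) and under IL-1b (0.40 ± 0.06). Ddr2, the kinase for fibrillar collagen in fibroblasts, was not called (0.02 ± 0.19).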

How the data were processed

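Total RNA of 24 samples was labelled with biotin by the Eberwine method and hybridised to Affymetrix Mouse 430 2.0 arrays, per the labels' protocols. The values used are the signal intensities per probe set that the authors deposited, on a linear scale with values from -1617.3 to 13068.67. The summary method and scaling behind them are not given in the sources used here, and no further normalization was applied. Of 45077 probe sets, 40 controls were left out, 34945 had a single gene symbol in GEO's platform annotation, 932 had several and 9160 had none. All 42 collagen genes matched RefSeq by Entrez number. Groups came from the sample titles.

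Values below 0 were set to 0, 16 was added and log2 taken. limma 3.58.1 in R 4.3.3 (lmFit, eBayes, 8 group means, 16 residual and 1.94 prior degrees of freedom) gave 15 comparisons, each adjusted over 14217 genes, and the procedure was tested on simulated data. Genes are named if called, if among the 2 highest or 2 lowest collagens of a comparison, or if bright in their class. For helper and marker lists the rule allowed 4 called members; further called members and defining markers were named after their values were seen, as were summed fibroblast markers without Thy1. The members and lists were chosen with earlier results of these data known. Replicate numbers did not pair the arrays (correlations of deviations -0.178 to 0.292). Alternatives varied the added constant (64), the scale, the dim filter (none, 60th percentile), normalization, the probe set per gene, the arrays fitted, a replicate block, the array code, array weights and single arrays. Fitting every probe set on its own was chosen after seeing the data.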

Additional observations from a re-analysis of the deposited data

How the results depend on the processing

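With 3 arrays per group, and values near or below 0 for the dimmest collagens, only differences well above the spread between arrays could be called. Of 760 values of called collagen differences under alternatives, 600 stayed called, 160 lost the call and 0 changed sign. Col11a1, Col3a1, Col4a5 and Col5a2 kept their calls in unstimulated AcP against CD25 neurons under all alternatives. Counts stayed within 1.5 times of the reported one under array medians centred, quantile normalization and every probe set fitted singly (15 in place of 12 and 9 in place of 8 in the unstimulated comparisons with CD25 neurons). For the response of AcP neurons the count was 0 under the generalised log, no dim filter, the 60th percentile filter, the mean of probe sets, the array code as a block, array weights, and the replicate block, whose numbers did not pair the arrays. For the response of AcP+AcPb neurons it was 0 with the 60th percentile filter, the mean of probe sets, a block for the array code and only the arrays compared. Unstimulated, with only the arrays compared, it was 5 for AcP against CD25, 4 for AcPb against CD25 and 0 for AcPb against AcP. AcPb against CD25 gave 5 with the 60th percentile filter and 14 with array weights. AcPb against AcP gave 2 with the 60th percentile filter and 0 with the mean of probe sets and with array weights. Under IL-1b, AcP against CD25 gave 5 with only the arrays compared. AcPb against CD25 gave 7 with log2(value + 64), 8 with array weights and 1 with only the arrays compared. AcPb against AcP gave 3 with log2(value + 64), no dim filter, the mean of probe sets and a block for the array code, and 11 with array weights. Leaving out single arrays gave 0 to 0 for the response of AcP neurons, 0 to 1 for that of AcP+AcPb neurons, and 0 to 1 for the response difference of AcPb and AcP neurons (1 being Col4a3 without AcPb IL-1b array 1). Unstimulated it gave 10 to 13 for AcP against CD25, 4 to 9 for AcPb against CD25 and 0 to 2 for AcPb against AcP. Under IL-1b it gave 8 to 12, 1 to 6 and 1 to 3. Among values that were not called, Col12a1 in unstimulated AcPb against CD25 neurons turned to -0.39 (adjusted p = 0.19) with the mean of probe sets. The Col4a6 response of AcP+AcPb neurons turned to 0.14 when the array code was blocked, and leaving out single arrays gave -0.60 to 0.00023. The array code could not be fitted in comparisons of the AcP+AcPb arm with the AcP arm. Apart from AcP neurons' response, the replicate block moved no count by over 1.5 times. The causes of these changes were not tested, beyond fewer arrays in the fit or fewer genes after the stricter filter.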
